A study of Homo sapiens with 43 samples.

Results

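LK2 and NCI-H520 are the lung squamous cell carcinoma lines of the series in which both Sox2 and Brn2 were mapped by chromatin immunoprecipitation and sequencing (ChIP-seq), and their Sox2 peaks were compared here. The LK2 background was represented by 2 Sox2 libraries, 1 from LK2 and 1 from its derivative LK2_GFP, and NCI-H520 by 1 library. The 3 lists held 31693 of the 66376 Sox2 peaks in the 7 Sox2 lists of the series, and those overlapping by at least 1 bp were joined, which gave 20369 sites. Of these sites, 3660 were in both LK2-background lists and not in NCI-H520 (LK2-background-only sites), 7285 were in NCI-H520 and in neither LK2-background list (NCI-H520-only sites), and 2828 were in all 3 lists (shared sites). The other 6596 sites did not fall in these classes. Of them, 3857 were in the LK2_GFP list alone, 1676 in LK2_GFP and NCI-H520, 912 in LK2 alone and 151 in LK2 and NCI-H520.

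The series profiled H3K27ac, Sox2, Brn2 and p63 in such lines, with 27 peak lists from 43 samples. All lines were grown in RPMI-1640 with fetal bovine serum, and the same antibodies to Sox2 and to H3K27ac were used throughout. LK2_GFP and LK2_DNp63 share the LK2 background and bear the names of green fluorescent protein and of a p63 form, but the labels give neither the construct nor how the cells were made. H3K27ac was mapped in 2 libraries of LK2, 2 of NCI-H520, 1 of LK2_GFP and 1 of LK2_DNp63. Brn2 chromatin was prepared with an added cross-linker and micrococcal nuclease, unlike the Sox2 and H3K27ac chromatin. Each line is 1 line, and nothing in the labels says that its libraries came from separate cultures. A code in the sample descriptions is shared by the LK2 and NCI-H520 Sox2 libraries, and another by the LK2_GFP and LK2_DNp63 Sox2 libraries. The labels do not say what these codes stand for.

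Sox2 is a transcription factor with a high-mobility-group domain that binds short DNA motifs, can engage closed chromatin and often pairs with POU-domain factors such as Brn2 (POU3F2). It maintains pluripotent and neural progenitor cells, takes part in the formation of the foregut and airway epithelium, and is a frequently amplified oncogene of squamous carcinomas. H3K27ac, acetylated lysine on histone H3, marks active promoters and enhancers.

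The deposited lists give a position and a score for each peak and no read counts, so sequencing depth is unknown and a site missing from a list is not shown to be unbound. The LK2 list held 7611 Sox2 peaks, the LK2_GFP list 12034 and the NCI-H520 list 12048, each starting at a score of 50. The H3K27ac lists held 30641 and 16470 peaks in the LK2 libraries, against 24619 and 29219 in the NCI-H520 libraries, and covered 29.1 and 24.6 Mb in LK2 against 48.4 and 51.0 Mb in NCI-H520. NCI-H520 therefore had more of its genome called as acetylated, which bears on every H3K27ac value below. All coordinates are on hg19, and sites are given without gene names because no annotation of that build was used here.

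Most LK2 Sox2 peaks recurred in the second library of the same background, and a smaller share recurred in NCI-H520. Of the LK2 peaks, 86.0% overlapped an LK2_GFP peak and 39.1% an NCI-H520 peak. Of the LK2_GFP peaks, 54.0% overlapped an LK2 peak and 37.5% an NCI-H520 peak. Of the NCI-H520 peaks, 24.99% overlapped an LK2 peak and 38.3% an LK2_GFP peak. These shares define the classes and are given as a description, with no test. NCI-H520-only sites rested on 1 library where LK2-background-only sites needed 2, so the larger number of NCI-H520-only sites cannot be told apart from this difference in the rule. With the LK2 list alone, whose library shares its code with the NCI-H520 library, 4637 sites were in LK2 and not NCI-H520, 9037 were in NCI-H520 and not LK2, and 2972 were in both. With the LK2_GFP list alone these counts were 7525, 7437 and 4507.

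The share of peaks held by another list was larger at higher scores. For LK2 peaks, the share in LK2_GFP lay above that in NCI-H520 from the bottom to the top of the list. Among LK2 peaks of the lowest decile of scores, 63.7% (Wilson 95% interval 60.2 to 67.0%) were in LK2_GFP and 26.6% (23.6 to 29.8%) in NCI-H520. Among those of the highest decile, 762 of 762 were in LK2_GFP and 67.5% (64.0 to 70.7%) in NCI-H520. LK2_GFP held more LK2 peaks than NCI-H520 did in each of the 10 deciles. Its list also covered 11.2 Mb, against 6.14 Mb for NCI-H520, and the part of this in the gap was not tested. NCI-H520 peaks were held by either LK2-background list for 19.6% (17.4 to 21.9%) of the lowest decile and 74.0% (71.5 to 76.4%) of the highest decile. Intervals here and below cover counting error only. The third LK2-background list, LK2_DNp63, was shorter, with 4217 peaks. It held 13.7% of the lowest and 89.0% of the highest decile of LK2 peaks. The first of these shares was below the 26.6% in NCI-H520 and the second above the 67.5%, so the gap at all scores was that of LK2_GFP only. Of the same deciles of NCI-H520 peaks, LK2_DNp63 held 5.39% and 35.1%.

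**Figure D1:**
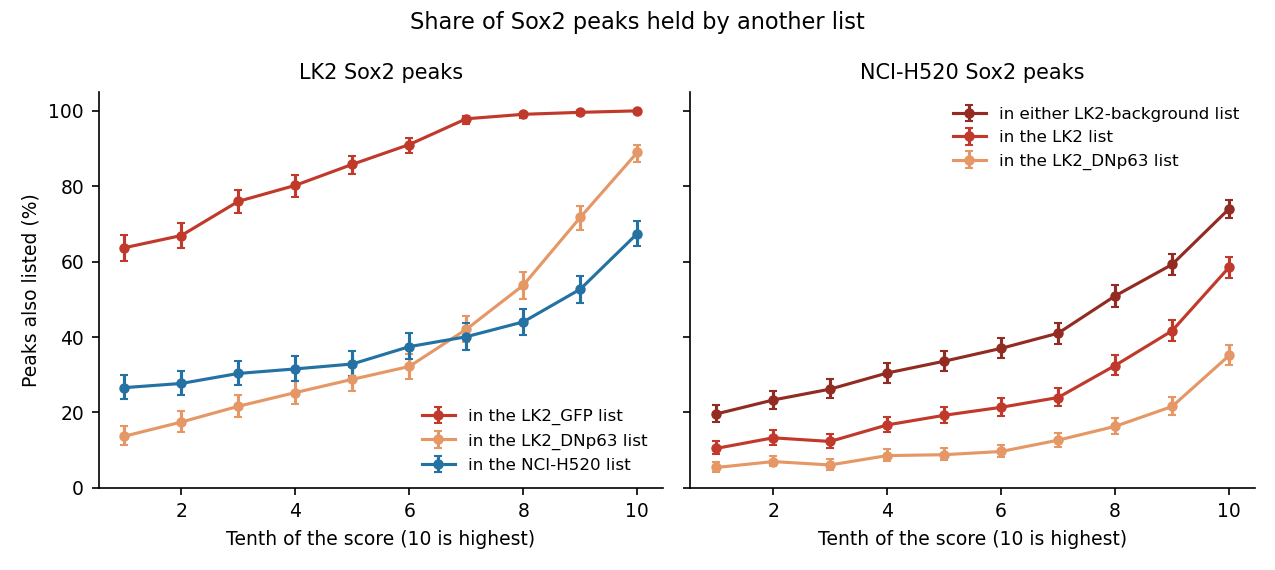
The share of LK2 Sox2 peaks (left) and NCI-H520 Sox2 peaks (right) that overlap a peak of another Sox2 list (y axis, percent) is plotted against the decile of the score within the list (x axis), with Wilson 95% intervals. Each curve is higher at the highest than at the lowest decile, reaching 100% for LK2 peaks in LK2_GFP and 67.5% for LK2 peaks in NCI-H520.

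Shared sites scored higher than sites private to a background, and among private sites those of NCI-H520 lay lowest. Scores were turned into percentiles within a list, since the scale of the score is not stated. In the LK2 list the median percentile was 51.5 (lower and upper quartile 27.9 and 72.6) for LK2-background-only sites, against 64.7 (37.6 and 85.8) for shared sites. In the LK2_GFP list it was 62.7 (40.7 and 80.0) for LK2-background-only sites, against 79.8 (61.4 and 91.6) for shared sites. In the NCI-H520 list it was 40.3 (19.2 and 64.0) for NCI-H520-only sites, against 73.9 (47.4 and 89.7) for shared sites. The quartile ranges overlapped in all 3 lists. Scores and widths come from the lists that formed the classes, so they are described and not tested. In their own lists, 6.75% of LK2-background-only sites (LK2 scores) and 4.30% of NCI-H520-only sites were in the highest decile, and 48.9% and 60.7% were below the middle of the list. LK2-background-only sites had to be in 2 lists and NCI-H520-only sites in 1, a filter on low scores that acts on the first of these classes and not on the second.

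Peak width followed the list and the score more than the class. In the LK2 list the median width was 690 bp at LK2-background-only sites, against 737 bp at shared sites, and in the LK2_GFP list 877 bp, against 966 bp. In the NCI-H520 list it was 447 bp at NCI-H520-only sites, against 541 bp at shared sites. Within the highest quartile of scores the medians were 849 bp and 851 bp in LK2, 1010 bp and 1059 bp in LK2_GFP, and 611.5 bp and 650.5 bp in NCI-H520. Within the lowest quartile they were 618 bp and 626 bp, 770 bp and 771 bp, and 417 bp and 419 bp, with the private class given first in each pair. Within a quartile of the score, private and shared sites of 1 list were thus close in width, and the gap between LK2 and NCI-H520 sites was larger.

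**Figure D2:**
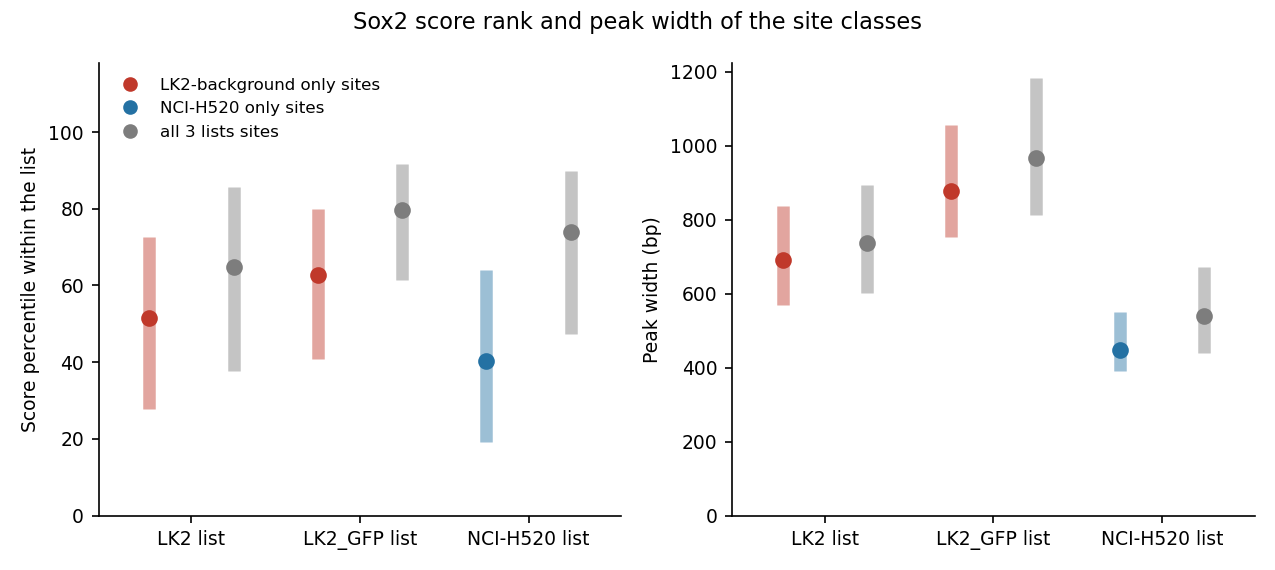
Score percentile within the list (left, y axis) and peak width in bp (right, y axis) are shown for LK2-background-only, NCI-H520-only and shared sites in each Sox2 list (x axis), with the median as a point and the quartiles as a bar. Shared sites have the higher median in each list, and widths differ more between lists (medians 447 to 966 bp) than between classes of 1 list.

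The highest-ranked sites of each class are described first and do not stand for their class, whose share is given beside each count. The strongest LK2-background-only site, chr5:28403704-28404964, ranked 2 of 7611 in LK2 and 3 of 12034 in LK2_GFP, was acetylated in both LK2 libraries and neither NCI-H520 library, and was also a Sox2 peak in HCC95, KNS62, HCC2814 and LK2_DNp63. Of the 10 LK2-background-only sites with the highest mean percentile, 10 carried an LK2 Brn2 peak (22.4% of the class) and none an NCI-H520 Brn2 peak (0.273%). Of the same 10, 8 were also in the LK2_DNp63 Sox2 list (41.9% of the class) and 7 were acetylated in both LK2 libraries (20.1%). None of the 10 was acetylated in both NCI-H520 libraries (10.96% of the class). That rested on the second NCI-H520 library. In the first, some were acetylated, among them chr8:63213674-63215920 and chr11:28538850-28540224. Exceptions to acetylation in LK2 included chr8:34503557-34504658, ranked 33 and 31 in LK2 and LK2_GFP, with no H3K27ac peak in any of the 4 libraries.

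Among the 10 highest-ranked NCI-H520-only sites, 7 were acetylated in both NCI-H520 libraries (42.4% of the class), 3 of these also in both LK2 libraries (14.6%), and none carried an LK2 Brn2 peak (2.36%). The site at chr7:46255258-46256032, ranked 27 of 12048, was acetylated in both NCI-H520 libraries and neither LK2 library. The site at chr8:127987108-127987959, ranked 39, showed the same pattern and no H3K27ac peak in any of the 11 other lines. The 2 highest-ranked NCI-H520-only sites stood apart in width. They were chr10:42596685-42600709 and chr1:121480773-121485546, 4025 and 4774 bp wide where the class median was 447 bp, and neither was acetylated in NCI-H520. The first was also a Sox2 peak in HCC95, KNS62 and HCC2814 and an NCI-H520 Brn2 peak. The second was also a Sox2 peak in HCC2814, and each had an H3K27ac peak in LK2_GFP. Peaks were filtered by chromosome only, and no list of regions prone to artefact signal was applied. The recurrence of these wide peaks in other lists is therefore not shown to be shared binding. Whether they reflect Sox2 binding was not tested.

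Of the 10 highest-ranked shared sites, 9 were acetylated in all 4 libraries (34.9% of the class) and 8 carried an LK2 Brn2 peak (33.5%). The site at chr3:181658101-181660307 ranked 21 in LK2, 6 in LK2_GFP and 18 in NCI-H520. The site at chr16:50496693-50498181 ranked 44 in LK2, 44 in LK2_GFP and 3 in NCI-H520. The exception, chr8:80875219-80876479, ranked 5, 4 and 8 in the same lists and had no H3K27ac peak in LK2 or NCI-H520, although 5 of the 11 other lines had one there.

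Private sites of the LK2 background and of NCI-H520 shared bins about as often as their numbers over all bins give. They occupied 3374 and 6116 bins of 50 kb, of which 375 held both kinds (11.1% of the LK2-background bins and 6.13% of the NCI-H520 bins). Over all 60679 bins, 10.1% held an NCI-H520-only site and 5.56% an LK2-background-only site, so that the shares within the other class's bins were close to those over all bins. In 1 bin there were at least 2 of each. The median distance to the nearest Sox2 peak of the other line was 84.7 kb for LK2-background-only sites and 67.3 kb for NCI-H520-only sites. Only 6.26% and 7.48% of these sites had such a peak within 5 kb.

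NCI-H520-only sites were the most clustered class, and the gap was smaller when an equal number of high-ranked sites was taken from each class. Bins with at least 2 sites of the class held 15% of LK2-background-only sites, 28.5% of NCI-H520-only sites and 14.4% of shared sites. Bins with at least 3 held 1.83%, 8.76% and 2.83%. With the 2828 highest-ranked sites of each class, the shares in bins with at least 2 were 13.4%, 17.1% and 14.4%. The densest LK2-background-only bin, chr4:139000001-139050000, held 4 sites, with 5.79 and 9.13 kb of H3K27ac in LK2 and none in NCI-H520. The densest NCI-H520-only bin, chr17:27050001-27100000, held 7 sites of low rank (mean percentile 30.8) and had H3K27ac in both lines, 8.56 and 7.46 kb in LK2 against 11.5 and 13.9 kb in NCI-H520, as well as 8.68 to 13.1 kb in the 11 other lines. Next came bins of 5 sites such as chr8:9300001-9350000 (mean percentile 80.1), with 1.76 and 1.41 kb of H3K27ac in LK2 and 27.3 and 28.5 kb in NCI-H520. The bin chr5:135000001-135050000 held 4 shared and 4 NCI-H520-only sites and no LK2-background-only site, with 16.8 and 17.4 kb of H3K27ac in LK2 and 32.0 and 32.9 kb in NCI-H520.

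The private classes were spread unequally over chromosomes. Chromosome 19 held 0.301% of LK2-background-only sites and 3.09% of NCI-H520-only sites (11 and 225 sites), and chromosome X 0.464% and 3.60% (17 and 262 sites). Chromosome 16 held 1.48% and 5.12%, and chromosome 22 0.519% and 1.40%. Chromosome 9 leaned the other way, with 6.07% and 3.36%. As log2 ratios of shares, LK2-background-only over NCI-H520-only sites, these were -3.36, -2.95, -1.80, -1.43 and 0.85. H3K27ac peaks had log2 ratios of shares, LK2 over NCI-H520, of the same signs but smaller, at -0.28, -0.74, -0.39, -0.34 and 0.21 on these 5 chromosomes, which were picked after their values were seen. Over all 23 chromosomes the signs were the same on 18 and opposite on 5, where the ratio of sites was at most 0.54 in size. Copy number was not measured, and its part in these shares was not tested.

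Sites private to a background were acetylated more often in libraries of that background than in the other line, and the gap was larger at NCI-H520-only sites. LK2-background-only sites overlapped an H3K27ac peak for 30.5% and 23.6% in the LK2 libraries, against 18.8% and 13.2% in the NCI-H520 libraries. The lowest LK2 library lay above both NCI-H520 libraries. NCI-H520-only sites did so for 23.9% and 17.9% in LK2, against 48.7% and 51.5% in NCI-H520. Shared sites did so for 54.5% and 45.9% in LK2, against 62.1% and 56.2% in NCI-H520. For both of these classes each NCI-H520 library lay above both LK2 libraries.

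The mean difference, LK2 minus NCI-H520, was 11.04 percentage points at LK2-background-only sites, from 27.1% ± 4.93 in LK2 and 16.0% ± 3.96 in NCI-H520 (SD, n = 2 libraries each). It was -29.2 points at NCI-H520-only sites, from 20.9% ± 4.24 in LK2 and 50.1% ± 2.03 in NCI-H520. At shared sites it was -8.95 points, from 50.2% ± 6.05 in LK2 and 59.2% ± 4.15 in NCI-H520. A two-sided exact permutation test over libraries gave p = 0.333 for each class, which is the smallest value that 2 libraries against 2 allow. The difference at LK2-background-only sites depended on how much of a site was asked for. It was 4.03 points in the 200 bp at the site centre and 11.02 points in 1000 bp. When at least 50% of the site had to be covered it was 2.91 points. The libraries of the lines no longer separated there (p = 0.667, same permutation test). The difference at NCI-H520-only sites was between -29.6 and -28.8 points under these 3 settings. With the 16470 highest-scoring H3K27ac peaks of each library, the differences were 9.02, -23.4 and -7.09 points at LK2-background-only, NCI-H520-only and shared sites. This sets the lists to an equal number of peaks and not to an equal covered length.

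Within a library, the order of the private classes turned with the line. The share at LK2-background-only minus that at NCI-H520-only sites was 6.68 and 5.71 points in the LK2 libraries, 17.0 points in LK2_GFP and 8.96 points in LK2_DNp63, against -29.9 and -38.3 points in the NCI-H520 libraries. In the 200 bp at the site centre the LK2 libraries gave -2.62 and 1.96 points, so that the order in the first LK2 library was reversed there, whereas LK2_GFP gave 9.33 points and the NCI-H520 libraries -30.2 and -37.7 points. The 11 other lines, which were not used to form the classes, had a lower share at LK2-background-only than at NCI-H520-only sites in 11 of 11 cases, by -8.76 to -3.13 points. Across the 11 lines H3K27ac was found at 9.59 to 17.8% of LK2-background-only sites, 14.9 to 23.2% of NCI-H520-only sites and 14.7 to 24.0% of shared sites.

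**Figure D3:**
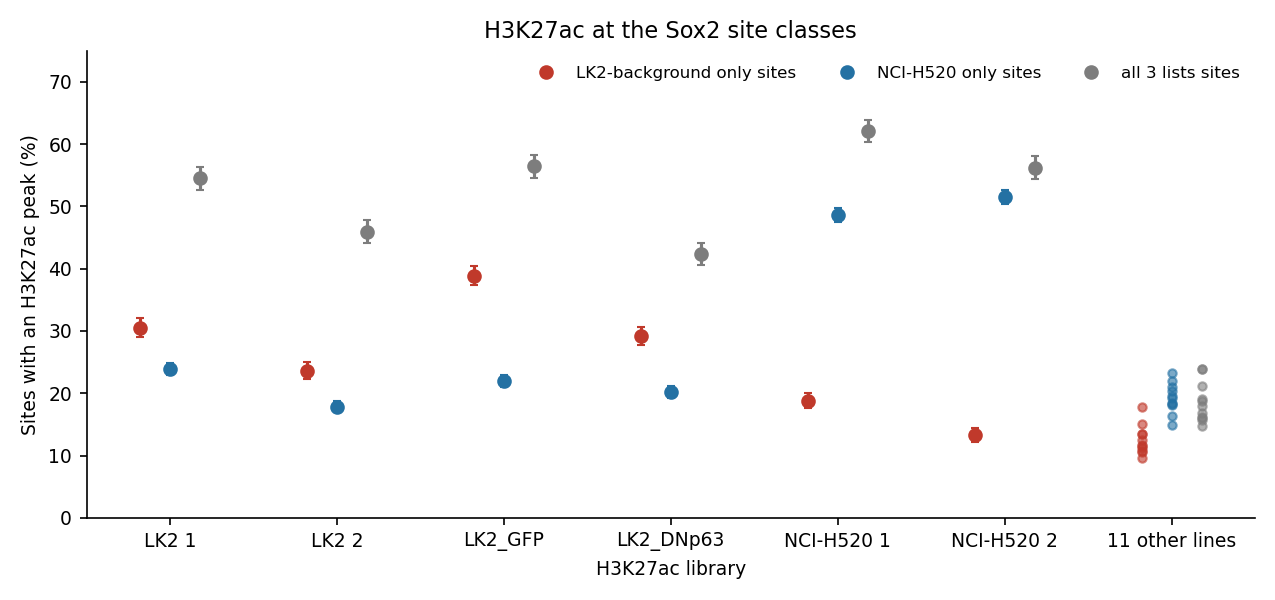
The share of sites with an H3K27ac peak (y axis, percent) is shown for the 3 site classes in each library of the LK2 background, each NCI-H520 library and 11 other lines (x axis), with Wilson 95% intervals for single libraries and 1 point per line for the other lines. LK2-background-only sites lie above NCI-H520-only sites in the 4 LK2-background libraries and below them in both NCI-H520 libraries.

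Acetylation in 1 line alone was a minority pattern in each private class. Both LK2 libraries and no NCI-H520 library were acetylated at 8.61% (7.74 to 9.56%) of LK2-background-only sites and 0.426% of NCI-H520-only sites. Both NCI-H520 libraries and no LK2 library were acetylated at 1.80% of LK2-background-only sites and 21.2% (20.3 to 22.1%) of NCI-H520-only sites. All 4 libraries were acetylated at 7.19%, 14.6% and 34.9% of LK2-background-only, NCI-H520-only and shared sites, and none of the 4 at 60.7%, 40.8% and 27.3%. The NCI-H520-only class also held the largest share of sites acetylated in each of the 11 other lines, 10.0%, against 2.21% of LK2-background-only and 5.98% of shared sites. In none of the 11 was H3K27ac found at 65.9% of LK2-background-only, 64.6% of NCI-H520-only and 57.5% of shared sites.

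Around the sites, H3K27ac coverage in LK2 was higher on the flanks than at the centre for LK2-background-only and shared sites. At LK2-background-only sites, the first LK2 library covered 12.2% of sites at the centre and 18.6% at 500 bp to the left of it, and the second 15.5% and 17.7%. The first NCI-H520 library covered 15.2% of these sites at the centre and 15.3% at 500 bp, and the second 9.86% and 10.1%. At NCI-H520-only sites, coverage at the centre was 16.1% and 14.0% in LK2 and 43.4% and 44.7% in NCI-H520, and at 5000 bp to the left it was 2.59% and 2.54% in LK2 and 9.17% and 9.499% in NCI-H520. At shared sites the dip was deepest in the first LK2 library, with 24.5% at the centre and 39.3% at 500 bp, and the second had 31.3% and 36.6%. The NCI-H520 libraries had 55.0% and 46.0% of shared sites covered at the centre and 55.7% and 49.7% at 500 bp. The median H3K27ac peak was 731 and 1202 bp wide in LK2 against 1329 and 1206 bp in NCI-H520, and the part of peak width in this pattern was not tested.

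**Figure D4:**
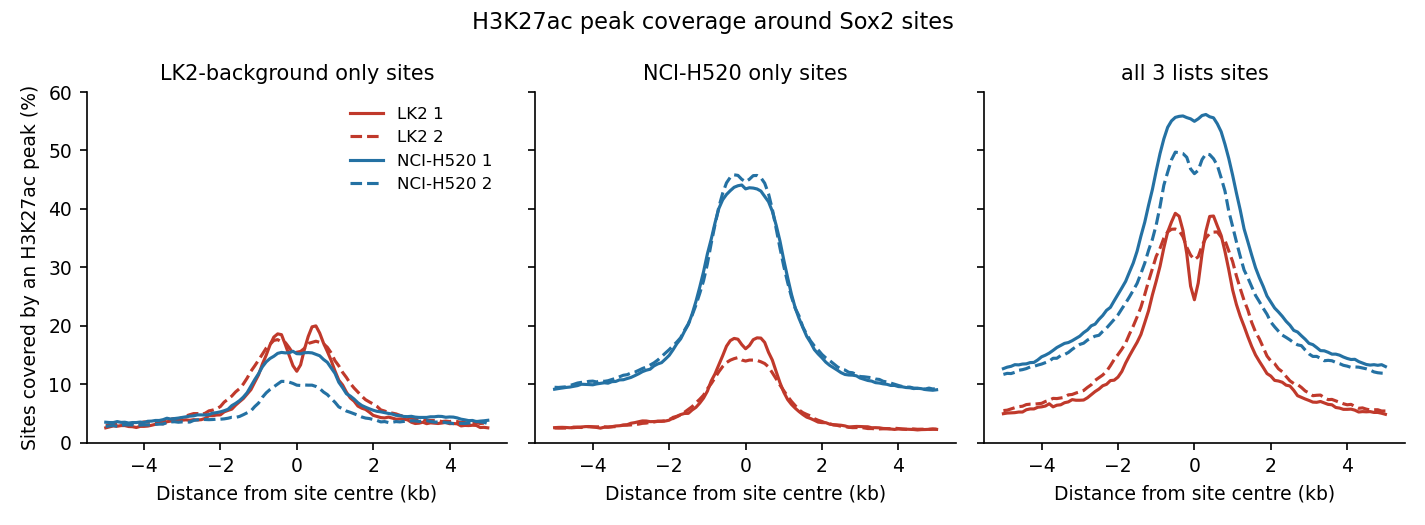
The share of sites covered by an H3K27ac peak (y axis, percent) is plotted against the distance from the site centre (x axis, kb) for the 3 site classes, with LK2 libraries in red and NCI-H520 libraries in blue. A central dip is seen in the first LK2 library at LK2-background-only sites (12.2% at the centre) and at shared sites (24.5%), and the NCI-H520 curves stand highest at NCI-H520-only and shared sites.

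The highest-scoring private sites were the most often acetylated in their own line. From the lowest to the highest quartile of LK2 scores, acetylation of LK2-background-only sites was 26.0%, 27.3%, 30.7% and 39.0% in the first LK2 library and 19.0%, 19.7%, 23.7% and 32.8% in the second. In the first NCI-H520 library the same quartiles gave 19.1%, 18.3%, 17.7% and 20.7%, and in the second 15.7%, 14.5%, 11.04% and 11.98%. For NCI-H520-only sites, the quartiles of the NCI-H520 score gave 26.0%, 23.8%, 22.9% and 21.01% in the first LK2 library and 19.9%, 17.5%, 17.98% and 14.1% in the second. In the NCI-H520 libraries they gave 45.2%, 42.9%, 50.6% and 64.0%, and 48.2%, 46.6%, 52.9% and 65.9%. For both private classes the difference between the lines was therefore widest in the highest quartile of scores.

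Across 50 kb bins, the length covered by H3K27ac was tested with limma on log2(scaled length + 1000 bp), after scaling each library to the same total. Of 6017 bins with enough covered length to test, 482 were higher in LK2 (8.01%) and 656 lower (10.9%) at a Benjamini-Hochberg adjusted p under 0.05, and the median log2 difference over all tested bins was 0.21. Of the 263 bins with at least 2 LK2-background-only sites, 107 were tested, of which 42 were higher and 2 lower in LK2, with a median log2 difference of 1.31. Of the 909 bins with at least 2 NCI-H520-only sites, 550 were tested, of which 6 were higher and 221 lower in LK2, with a median of -0.86. In the larger set of 5255 bins with NCI-H520-only sites, also single ones, and no site of the other classes, 1396 were tested, of which 38 were higher and 319 lower, and the median was nearer 0, at -0.18. The matching 2743 LK2-background-only bins had 421 tested, 134 higher and 16 lower, with a median of 0.83. Of the 189 bins with at least 2 shared sites, 160 were tested, of which 12 were higher and 15 lower, with a median of -0.10. The bins that passed the filter did so through the H3K27ac that was tested, so these counts describe the tested bins and not all bins of a class. The number of calls rested on each library. It was 352, 0, 406 and 443 without the first or second LK2 or the first or second NCI-H520 library, and at an unadjusted p under 0.05 it was 1653 without the second LK2 library. In bins with at least 2 sites, the medians kept their signs in these 4 fits for the private classes. They were 0.73 to 1.71 for LK2-background-only and -1.02 to -0.69 for NCI-H520-only bins, whereas the median of bins of shared sites was -0.26 to 0.09 and turned its sign. With the same number of top-scoring peaks per library, the median of the larger NCI-H520-only set turned to 0.06. In bins with at least 2 NCI-H520-only sites it was then -0.42. Without the scaling, the median over all tested bins was -0.56, and 157 bins were higher and 1778 lower in LK2. The medians were then 0.38 for LK2-background-only bins (24 higher, 10 lower), -1.62 for NCI-H520-only bins (1 higher, 398 lower) and -0.93 for bins of shared sites (5 higher, 81 lower).

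Single bins with the largest called differences are given as values only, since they were picked by the difference that was tested and, where 1 line is at 0, passed the filter through the other line. In chr5:174150001-174200000, with 2 LK2-background-only sites, H3K27ac covered 13.5 and 14.1 kb in LK2 and was listed at 0 in both NCI-H520 libraries. LK2_GFP, which was not in the fit, had 15.8 kb there. In chr9:129250001-129300000, also with 2 such sites, it covered 12.9 and 13.2 kb in LK2 and was listed at 0 in NCI-H520. In chr8:9450001-9500000, with 5 NCI-H520-only sites, H3K27ac was listed at 0 in both LK2 libraries and in LK2_GFP and covered 46.0 and 43.9 kb in NCI-H520. The highest value in any of the 11 other lines was 0.462 kb. In chr2:103550001-103600000, with 5 NCI-H520-only sites, it was listed at 0 in LK2 and covered 26.2 and 29.2 kb in NCI-H520. The 2 bins of LK2-background-only sites that were lower in LK2, at chr11:7600001-7650000 and chr20:22350001-22400000, each also held 1 NCI-H520-only site, and passed in 4 and 3 of the 11 other settings of the fit. Among bins of shared sites, chr1:232700001-232750000 had 4.46 and 6.03 kb in LK2 and was listed at 0 in NCI-H520, and chr3:8500001-8550000 was listed at 0 in LK2 and had 8.73 and 7.89 kb in NCI-H520.

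Sox2 lists not used to form the classes were also set against them. LK2_DNp63 shares the LK2 background, and the private classes were chosen by the presence or absence of Sox2 peaks of that background. The contrast between the private classes in the LK2_DNp63 list is therefore not independent of the rule. The LK2_DNp63 Sox2 list of 4217 peaks held 41.9% (40.3 to 43.5%) of LK2-background-only sites, 0.412% (0.289 to 0.587%) of NCI-H520-only sites and 48.1% (46.3 to 49.9%) of shared sites. Among LK2-background-only sites this share was 23.5%, 29.4%, 42.3% and 75.2% from the lowest to the highest quartile of LK2 scores. The Sox2 lists of other lines also overlapped LK2-background-only sites more often than NCI-H520-only sites. In HCC95 the shares were 16.2%, 9.53% and 26.0% for LK2-background-only, NCI-H520-only and shared sites. In KNS62 they were 12.5%, 3.13% and 18.2%, and in HCC2814 12.1%, 4.52% and 21.5%. Of the 3 classes, shared sites thus had the highest share in each of these lines. LK2-background-only sites had to be in 2 lists and NCI-H520-only sites in 1. Sites in the LK2 list alone gave 9.21%, 5.81% and 5.59% in HCC95, KNS62 and HCC2814. Those in the LK2_GFP list alone gave 15.2% in HCC95 and 10.7% in KNS62. The part of the 2-list rule and of peak width in the contrast between the private classes was not tested.

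Peaks of Brn2, a POU-domain factor of neural cells, were found in LK2 at Sox2 sites of the LK2 background and rarely at NCI-H520-only sites. The latter were chosen as lacking Sox2 peaks of the LK2 background. NCI-H520 Brn2 peaks were few in each class. The LK2 Brn2 list of 4819 peaks overlapped 22.4% (21.1 to 23.8%) of LK2-background-only sites, 2.36% (2.04 to 2.74%) of NCI-H520-only sites and 33.5% (31.8 to 35.3%) of shared sites. The NCI-H520 Brn2 list held 1298 peaks and overlapped 0.273%, 1.46% and 3.15% of the same classes. Of these NCI-H520 Brn2 peaks, 0.847%, 8.47% and 7.01% lay at sites of the same classes. With the 1298 highest-scoring LK2 Brn2 peaks, the LK2 shares were 5.33%, 1.13% and 10.0%, so that at an equal list length LK2-background-only sites still carried more LK2 than NCI-H520 Brn2 peaks, whereas NCI-H520-only sites carried 1.13% with the LK2 list and 1.46% with the NCI-H520 list. The LK2 Brn2 share at LK2-background-only sites was 13.5%, 14.95%, 22.8% and 39.8% (36.5 to 43.3%) from the lowest to the highest quartile of LK2 scores, whereas at NCI-H520-only sites it was 2.05%, 2.36%, 3.16% and 1.74% over quartiles of the NCI-H520 score. Shared sites gave 17.2%, 21.2%, 28.0% and 50.2% over quartiles of the LK2 score.

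**Figure D5:**
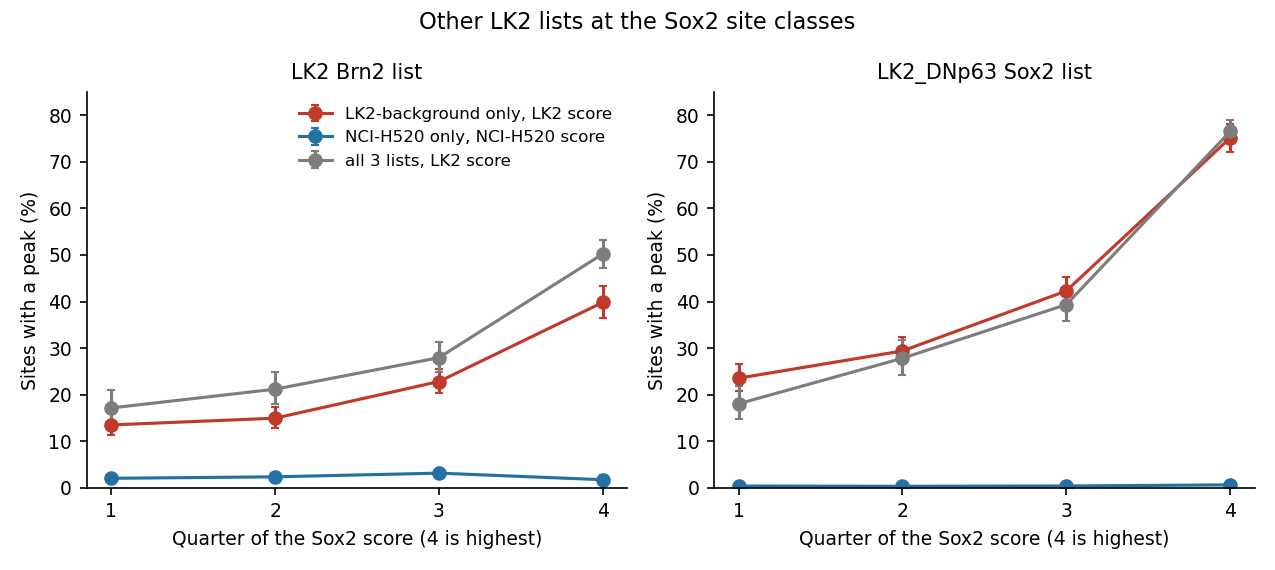
The share of sites with an LK2 Brn2 peak (left) or an LK2_DNp63 Sox2 peak (right), in percent, is plotted against the quartile of the Sox2 score for the 3 site classes, with Wilson 95% intervals. Both shares increase with the LK2 score at LK2-background-only and shared sites, to 39.8% and 50.2% for Brn2, and the Brn2 share is at most 3.16% at NCI-H520-only sites.

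LK2-background-only sites with a Brn2 peak differed from those without in other libraries. The 819 sites with LK2 Brn2 were acetylated for 40.8% and 37.2% in LK2, against 27.6% and 19.6% of the 2841 sites without. In the NCI-H520 libraries the same groups gave 21.9% and 14.7% with Brn2, against 17.95% and 12.8% without. The LK2_DNp63 Sox2 list held 57.9% of the sites with Brn2, against 37.3% of those without. Sites with Brn2 also had higher Sox2 scores, as the quartiles above show, and the part of the score in these differences was not tested. The 172 NCI-H520-only sites with an LK2 Brn2 peak were acetylated for 64.5% and 63.4% in LK2 and 79.7% and 81.4% in NCI-H520. In the LK2_DNp63 Sox2 list there were 0 of the 172, against 0.412% of the whole class. A count of 0 allows a share of up to 1.74% (3 of 172), so it does not set these sites apart from their class. The p63 list of LK2_DNp63 overlapped 2.84% of LK2-background-only, 0.933% of NCI-H520-only and 2.48% of shared sites.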

How the data were processed

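Peak lists were analysed for 27 of the 43 samples, and the 16 input samples were not analysed here. Per the submitters' processing notes, the aligner was Bowtie2 and the build hg19. The peak names in the deposited files begin with MACS, a peak caller, for which version, threshold and inputs are not stated in the labels or files. The score of each peak is the authors' own deposited value, without a stated scale, so it was used for ranks inside 1 list. Only chromosomes 1 to 22 and X entered, which left out 2092 peaks. No column of per-sample values was left unused (0 columns).

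Peaks sharing at least 1 bp were joined into sites. A site counted as acetylated when an H3K27ac peak overlapped it by at least 1 bp. Shares carry Wilson 95% intervals. LK2 and NCI-H520 shares were set against each other by a two-sided exact permutation of libraries, so p-values reflect the spread of libraries that may be technical copies. For 50 kb bins, covered length was scaled to equal totals and log2(length + 1000 bp) was tested with limma 3.58.1 in R 4.3.3, for bins whose mean reached 2000 bp, with Benjamini-Hochberg adjustment. The fit was tested on simulated data. Other steps used Python 3.11.15, NumPy 2.4.6, SciPy 1.17.1 and matplotlib 3.10.9.

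Per class, the text names from the 10 sites of highest mean score percentile, the 10 bins with most sites, and the 10 called bins of largest difference in each direction among bins with at least 2 sites. Members and lists were chosen with earlier results of these data known. Planned gene lists and motifs need a genome and annotation of hg19, which were not used here. Alternatives added after seeing the data were the 1000 bp window, peaks cut to 200 bp before joining, equal numbers of sites or Brn2 peaks, autosomes only for the score rank, and the splits by score and chromosome.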

Additional observations from a re-analysis of the deposited data

Results flagged for a closer look

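The H3K27ac share at LK2-background-only minus that at NCI-H520-only sites was 6.68 and 5.71 percentage points in the LK2 libraries, against -29.9 and -38.3 points in the NCI-H520 libraries. It was picked out because both libraries of LK2 lay on one side of 0 and both of NCI-H520 on the other. The difference between the lines was not tested. The first LK2 library gave -2.62 points in the 200 bp at the site centre and 4.30 points in 1000 bp.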

How the results depend on the processing

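Numbers of sites are given in the order LK2-background-only, NCI-H520-only and shared. The 50% of each list with the highest scores gave 1961, 3749 and 1338 sites, and the same number of top peaks per list gave 4531 NCI-H520-only sites. With 1 LK2-background list in place of 2, the ranges were 4637 to 7525, 7437 to 9037 and 2972 to 4507. With equal top lists, median percentiles were 58.3 and 53.2 for LK2-background-only sites in LK2 and LK2_GFP, and 70.2, 74.5 and 69.5 for shared sites in LK2, LK2_GFP and NCI-H520. In the 50% of each list with the highest scores, median widths were 776 and 969 bp for LK2-background-only sites in LK2 and LK2_GFP, 543 bp for NCI-H520-only sites, and 815, 1044 and 611.5 bp for shared sites. Bins of 100 kb put 24.8%, 40.2% and 22.9% of sites in bins with at least 2, and equal numbers of top sites gave 13.4% and 17.1% for the private classes. The LK2 Brn2 share fell to 5.33%, 1.13% and 10.0% with a shortened list. Leaving out 1 library gave H3K27ac differences of 7.55 to 14.5, -32.2 to -26.2 and -13.2 to -4.67 points, and 0 to 443 called bins, against 1138. Without scaling 1935 bins were called. Each H3K27ac difference kept its direction under the 10 alternatives tried, of which the replicate block could not change it. The exact permutation p was 0.667 for 50% coverage at LK2-background-only sites and for equal top H3K27ac peaks at shared sites, where the libraries of the lines did not separate. The cause of these changes was not tested beyond what each setting removes.

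The replicate numbers of LK2 and NCI-H520 are only shared numbers (correlation of their deviations over bins -0.20, 2 pairs). With the replicate block 1090 bins were called. The H3K27ac differences were 11.04, -29.2 and -8.95 points, the same as without the block by construction. Their exact sign-flip p was 0.5, the smallest value that 2 pairs allow. Depth is unknown, so a site that is not listed cannot be told apart from one missed by a shallow library.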
